A study of Homo sapiens with 12 samples.

Results

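After 48 h of doxycycline, OCI-AML2 cells carrying MEF2C with the S222A change were compared with OCI-AML2 cells carrying wild-type (WT) MEF2C. OCI-AML2 is an established human line from acute myeloid leukaemia. The comparison takes the 3 libraries titled as S222A induced and the 3 titled as WT induced, 6 of the 12 libraries of the study, as the sample titles assign them. The other 6 are the same lines kept in vehicle in place of doxycycline, called uninduced here, again 3 per line, and they serve as the background line difference. Both lines therefore carry a MEF2C construct and, when induced, the same agent: 600 ng doxycycline in 3 ml of culture, with no volume stated for the doxycycline amount itself. The cells were single-cell clones, and the labels do not say how many clones each construct had. Each construct comes with its own clones in all 12 libraries. A difference between clones, also in their response to doxycycline, and an effect of the mutation cannot be told apart in any contrast here. Cells given doxycycline without a construct were not analysed here.

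MEF2C is a MADS-box transcription factor that binds A/T-rich sites, works with class IIa histone deacetylases as repressing partners and with activators when signalled, and has roles in heart, muscle, brain and blood. In the myeloid lineage it favours monocytic over granulocytic fate, and in acute myeloid leukaemia it is known for its link to stem cell programmes and poor response to chemotherapy. The serine replaced in S222A is a phosphorylation site, and alanine in its place cannot carry a phosphate. The series title ties MEF2C phosphorylation to chemotherapy resistance, and the direct comparison of the induced lines asks which transcripts differ when the residue is changed.

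The induced WT libraries held 7294463, 875710 and 3718797 counts and the induced S222A libraries 2848123, 4489036 and 13134791. Levels below are in CPM, counts scaled to library size with TMM factors, over the 11474 of 55765 genes that passed the filter on low counts, which held 99.5% of all counts. The deepest library of each line (WT induced replicate 1 and S222A induced replicate 3) stood apart from the others on the first principal component of the 12 libraries. Mitochondrial transcripts took 5.04% to 9.27% of counts in the WT libraries and 7.0% to 8.80% in the S222A libraries. Of 9 defining markers of T and B cells none passed the filter, and their summed level was 1.14 to 4.39 CPM in WT and 4.90 to 5.63 CPM in S222A libraries; their part in any result was not tested. HBA1, HBA2, HBB and ALAS2 of the 8 erythroid markers, and COL3A1, EPCAM, KRT5, KRT18 and KRT19 of the 12 stromal and epithelial markers, were at 0 in all 6 induced libraries. The 14 myeloid leukaemia markers summed to 1338 to 1627 CPM in WT and 1167 to 1303 CPM in S222A libraries, with CD34 and CEBPA listed at 0 in all 6. Nothing in the labels shows that the replicates were grown as separate cultures; the p-values below measure only the spread among the libraries, and part or all of it may be technical. In bulk RNA, a change in the share of cells of a kind and a change in RNA per cell cannot be told apart.

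MEF2C itself was at 674, 844 and 812 CPM in the WT induced libraries and at 919.5, 956 and 786 CPM in the S222A induced libraries. The 2 groups overlapped. The log2 difference, S222A minus WT as everywhere below, was 0.19 ± 0.16 (SE; edgeR quasi-likelihood test, adjusted p = 0.56), and it was not called under any of 23 alternative settings, in which it ran from 0.09 to 0.26. In the uninduced libraries MEF2C was at 747, 645 and 817 CPM in WT and at 605, 701 and 802 CPM in S222A. Within each line the induced and uninduced libraries overlapped, so these levels show no clear induction of the construct. Counts per gene symbol do not separate the construct from the cell's own MEF2C. Its relatives and partners did not differ past the threshold either: of 12 tested MEF2 factors, class IIa deacetylases and cofactors none was called by edgeR (1 at an unadjusted p under 0.05; 0 called by DESeq2 or limma-voom, 2 with a term for the deepest libraries) and the median log2 difference was 0.16. HDAC4, the member with the smallest p, had a log2 difference of -0.79 ± 0.36 (adjusted p = 0.23). MARK and SIK kinases are families that phosphorylate MEF2C or class IIa deacetylases. None of 8 tested genes on a list of them that also holds STK11 was called by edgeR, DESeq2 or limma-voom. Of the 8, 0 had an unadjusted p under 0.05 (median 0.09).

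Across the genome 727 of 11474 genes (6.34%) were called between the induced lines at an adjusted p under 0.05, 428 higher (3.73%) and 299 lower (2.61%) in the S222A line. The higher side had larger differences. Of the called genes, 273 were at least 2-fold higher and 92 at least 2-fold lower, and 86 against 9 passed 4-fold. All but 1 of the 727 showed no overlap between the 3 and 3 libraries, a pattern that 28% of all tested genes showed. The number of calls depended on single libraries: it was 445 without WT induced replicate 2, 249 without WT induced replicate 3, and 304, 277 and 343 without S222A induced replicates 1, 2 and 3. A total of 186 genes (25.6% of the calls), 132 higher and 54 lower, were called in every fit that left out 1 of the 6 induced libraries; these are called stable below. Of 40 tested genes above the filter's cut-off in the S222A induced libraries alone, 17 were called. Such genes had to be higher there, though not to be called. Other called genes had a further library above the cut-off but still needed the S222A induced libraries to pass. HTRA3, SDC4, CXCR3, ITGAX and ID2 are among these and are not in the 17.

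**Figure D1:**
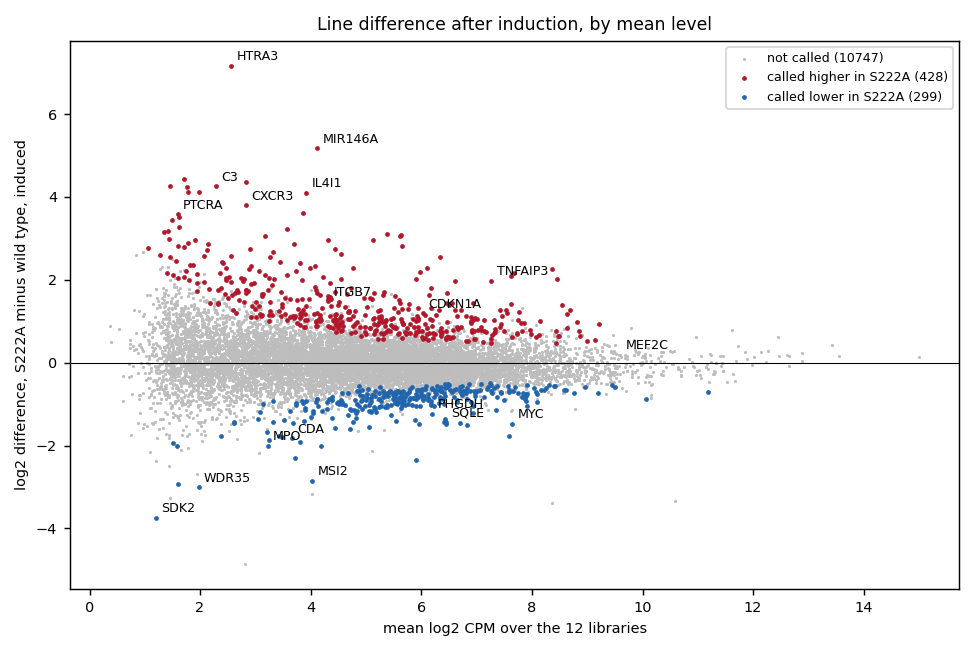
Each point is a tested gene, with its mean log2 CPM over the 12 libraries on the x axis and its log2 difference between the induced lines (S222A minus WT, 3 libraries each) on the y axis; red points were called higher (428) and blue points lower (299) in S222A. Among the named genes the largest differences upward (HTRA3, MIR146A) exceed the largest downward (SDK2, WDR35), and MEF2C lies near 0. Over all tested genes the differences run from -4.85 to 7.17.

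Several of the genes with the largest differences were close to silent in the WT line. HTRA3, a secreted serine protease, had 1 count in all 3 WT libraries together and 346 in the S222A libraries, a ratio of pooled CPM of 200.4 (95% exact interval for counting error only, 35.7 to 7937). The complement component C3 had 5 and 180 counts (ratio 20.8, interval 8.77 to 65.0), and the heparan sulfate proteoglycan SDC4 had 4 and 129 (ratio 18.7, interval 7.12 to 69.6). Each of these was above 4 CPM in every S222A induced library. In WT induced replicate 2 all 3 had 0 counts, which allows up to 3.36 CPM at that depth. LIN7A, MSRB3, PTCRA, PLA2G4C and DENND2C were similarly low in WT, with 2 to 6 counts over the 3 WT libraries; MSRB3 and PLA2G4C were not stable. The Notch ligand DLL1 and the RNA-binding protein gene LARP6, each with 4 WT counts, belong to the 14 largest as well. They were above the filter's cut-off in the S222A induced libraries alone and so had to be higher there. HTRA3, SDC4, MSRB3, PTCRA, PLA2G4C and DENND2C also needed the S222A induced libraries to pass. They could be tested only because they were high there. Better measured were IL4I1, a secreted amino acid oxidase of antigen-presenting cells, and FAM20C, a kinase of the secretory pathway. IL4I1 was at 2.78, 2.24 and 1.32 CPM in WT and at 33.2, 32.1 and 47.7 CPM in S222A libraries (log2 difference 4.11 ± 0.38, adjusted p = 5.1e-05). FAM20C was at 2.78, 1.12 and 3.16 CPM against 38.4, 25.0 and 36.9 CPM (3.61 ± 0.38, adjusted p = 0.00015). In neither gene did the lines come near each other. Among well-expressed genes, the tetraspanin CD82, a membrane organiser that restrains motility, had the smallest adjusted p that the rule named (5.6e-07): it was at 13.7, 13.5 and 15.3 CPM in WT and at 122, 112 and 122 CPM in S222A libraries, 8.32-fold higher.

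On the lower side, MSI2 and IFT57 stood out for their measured level. MSI2 encodes an RNA-binding protein that supports self-renewal of blood stem cells and leukaemia. It was at 24.6, 40.4 and 27.1 CPM in WT and at 5.20, 3.57 and 3.83 CPM in S222A libraries, 7.20-fold lower (log2 difference -2.85 ± 0.31, adjusted p = 0.00017). IFT57, a subunit of the intraflagellar transport particle that builds cilia, was at 82.3, 67.3 and 86.3 CPM against 12.5, 16.9 and 16.5 CPM (-2.36 ± 0.17, adjusted p = 1.2e-05). WDR35, another intraflagellar transport subunit, had 78 counts over the WT and 17 over the S222A libraries (ratio WT to S222A 7.92, interval 4.65 to 14.3). The RNA-binding protein gene MEX3A was lower by 4.01-fold (22.8, 34.8 and 28.9 CPM against 7.27, 6.69 and 7.01 CPM). Others of the 14 largest were ALDH1L2, ZNF185, PALD1, CDA and MARCH9, which were stable, and SDK2 (35 and 4 counts), DYRK3 and MPO, which were not. AFAP1-AS1, an antisense RNA whose reads cannot be told from those of its partner without strand, and FAM86C2P, a pseudogene with near-identical copies, were also among them, are uncertain and were not stable.

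NF-kB factors wait in the cytosol bound to inhibitors, and on activation they switch on cytokines together with the genes of their own feedback inhibitors. Of 40 listed NF-kB and inflammatory cytokine genes 26 were tested, and 8 were called higher and 1 lower in the S222A line (34.6% of the tested members against 6.34% of all genes), with a median log2 difference of 0.91 against 0.00 over all genes. The feedback inhibitor TNFAIP3 (A20) was at 72.3, 90.8 and 86.1 CPM in WT and at 376, 348 and 251 CPM in S222A libraries (1.98 ± 0.21, adjusted p = 0.00015). NFKBIA, which encodes the inhibitor IkB alpha, was at 99.4, 70.6 and 76.6 CPM against 216, 209 and 248 CPM (1.43 ± 0.29, adjusted p = 0.013). The inhibitor of apoptosis BIRC3 was at 2.92, 5.61 and 2.63 CPM against 31.5, 31.4 and 27.3 CPM (3.22 ± 0.36, adjusted p = 0.00024). For all 3 of these inhibitors the lowest S222A library lay above the highest WT library. The non-canonical subunit RELB was at 58.9, 47.1 and 37.1 CPM against 196, 167 and 202 CPM (1.97 ± 0.24, adjusted p = 0.0005). BCL3, an atypical IkB protein that acts in the nucleus, was higher by 2.96 ± 0.36 (adjusted p = 0.00049). Of the cytokines, TNF was at 52.2, 51.6 and 44.7 CPM against 121, 119.5 and 118 CPM (1.28 ± 0.25, adjusted p = 0.011), and the chemokine CCL5 was 1.95-fold higher (adjusted p = 0.0034). The dendritic cell marker CD83 was 2.07-fold higher. The mitochondrial superoxide dismutase SOD2, a common NF-kB target, went the other way (-0.68 ± 0.18, adjusted p = 0.045). TNFAIP3, BIRC3, BCL3, RELB and CCL5 were stable; CD83, NFKBIA, SOD2 and TNF lost the call when 1 induced library was left out. Between the uninduced lines 5 of the 26 were called higher, and the median there was 0.52.

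Promoters are shown for 3 called NF-kB genes, TNFAIP3, BIRC3 and NFKBIA. They were picked from the called members whose window held a match to the kappa-B consensus. That each holds a match was therefore fixed by the choice. The letters are from the RefSeq promoter table (build GRCh38.p14; the count table was made on another build, so the windows are not its coordinates), 250 bases up to the transcript start, on the coding strand, 5′ to 3′. Capitals mark matches to the 10-base kappa-B consensus, searched on both strands. The windows are chr6:137867009-137867258 on the plus strand for TNFAIP3, chr11:102317234-102317483 on the plus strand for BIRC3 and chr14:35404750-35404999 on the minus strand for NFKBIA.
TNFAIP3: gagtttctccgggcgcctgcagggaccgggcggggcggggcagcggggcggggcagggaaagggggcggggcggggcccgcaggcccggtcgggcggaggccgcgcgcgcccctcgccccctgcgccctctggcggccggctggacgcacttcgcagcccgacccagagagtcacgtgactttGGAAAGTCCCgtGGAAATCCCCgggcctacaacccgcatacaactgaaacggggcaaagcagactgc
BIRC3: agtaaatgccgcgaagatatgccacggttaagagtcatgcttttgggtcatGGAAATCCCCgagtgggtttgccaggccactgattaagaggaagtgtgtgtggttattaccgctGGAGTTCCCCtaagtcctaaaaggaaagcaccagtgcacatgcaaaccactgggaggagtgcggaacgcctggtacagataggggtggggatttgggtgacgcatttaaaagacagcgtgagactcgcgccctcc
NFKBIA: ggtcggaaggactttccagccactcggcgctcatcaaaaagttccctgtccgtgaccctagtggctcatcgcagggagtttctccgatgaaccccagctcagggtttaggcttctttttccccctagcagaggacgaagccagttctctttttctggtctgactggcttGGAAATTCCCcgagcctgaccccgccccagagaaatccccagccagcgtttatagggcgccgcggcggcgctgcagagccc
TNFAIP3 held 2 matches, GGAAAGTCCC and GGAAATCCCC, the nearer 46 bases from the start. BIRC3 held GGAAATCCCC and GGAGTTCCCC, and NFKBIA held GGAAATTCCC at 72 bases. Of the 9 called members, 7 had an entry and 4 of them a match (CD83 is the fourth), as did 11 of the 20 tested members with an entry. The called members BCL3, SOD2 and TNF had an entry and no match. Among all 27305 genes with an entry, 6.28% held a match in a window of this length. A match describes letters and not binding, and the list was made of known NF-kB genes.

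MIR146A, the gene of a microRNA known to target the NF-kB adaptors IRAK1 and TRAF6, was among the largest differences. It had 11, 0 and 3 counts in the WT induced libraries. The 11 counts of replicate 1 made 1.61 CPM, and the 0 of replicate 2 allows up to 3.36 CPM. In the S222A induced libraries it was at 42.9, 38.6 and 46.2 CPM (ratio of pooled CPM 36.2, interval 21.5 to 66.6, edgeR adjusted p = 1.7e-05). The mature RNA, shown with its seed (bases 2 to 8) in capitals as RefSeq gives it, is the product by which the gene acts.
hsa-miR-146a-5p: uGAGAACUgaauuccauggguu
The libraries did not measure this mature form, and reads under the symbol may come from the hairpin's longer host transcript.

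**Figure D2:**
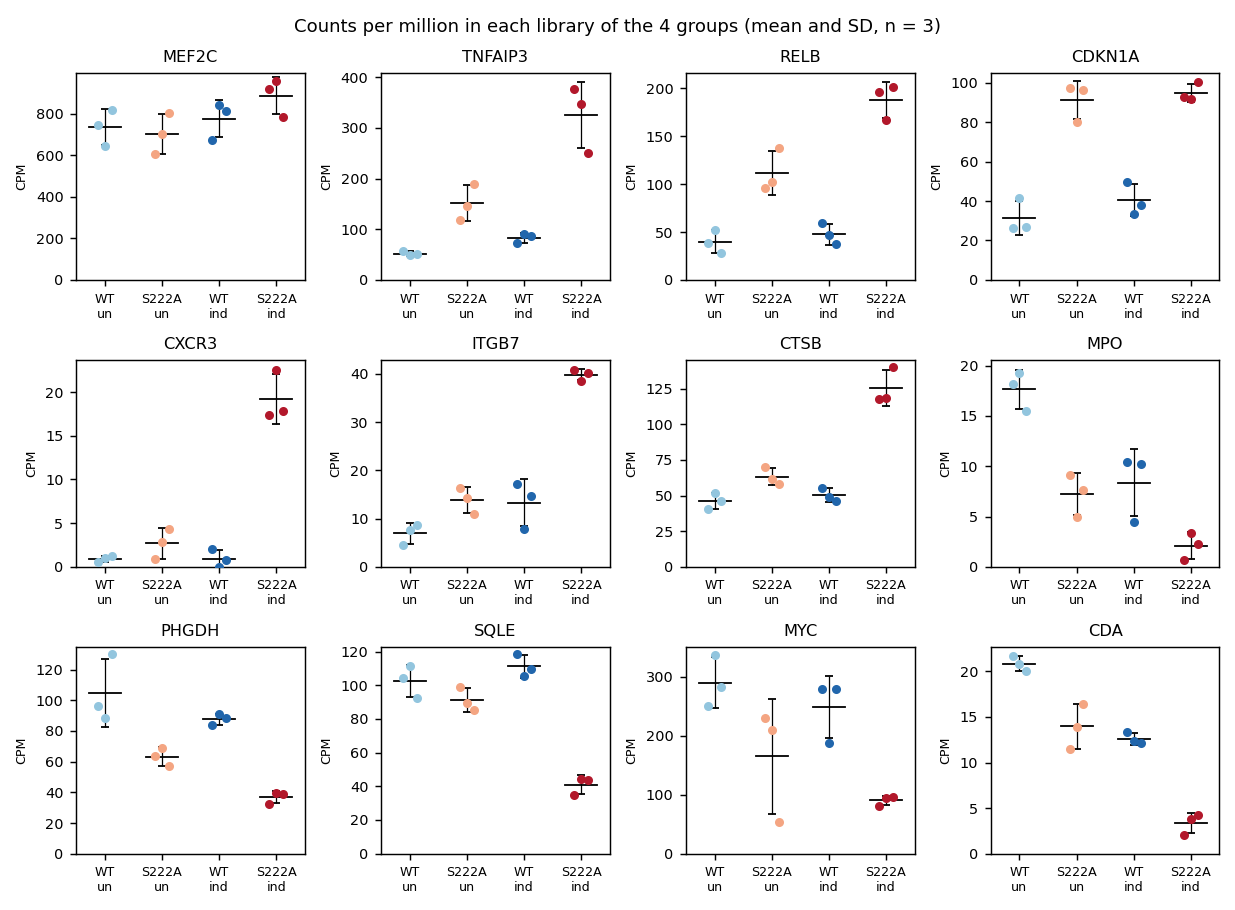
CPM of 12 genes in each library (points) of the 4 groups (WT un, S222A un, WT ind, S222A ind), with the group mean (bar) and SD (whisker, n = 3); every axis starts at 0. MEF2C overlaps between the lines; TNFAIP3, RELB, CDKN1A, CXCR3, ITGB7 and CTSB lie higher and MPO, PHGDH, SQLE, MYC and CDA lower in S222A ind than in WT ind.

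Interferon-stimulated genes carry out antiviral defence and are switched on through STAT and IRF factors. Of 25 tested, 5 (20%, against 3.73% of all genes called higher) were called higher and none lower, with a median of 0.60. Of the 25, 2 passed the filter only through the S222A induced libraries and had to be higher there. The share and the median are taken with them. IRF7 was at 4.09, 4.48 and 3.16 CPM in WT and at 11.8, 14.9 and 11.96 CPM in S222A libraries (1.75 ± 0.31, adjusted p = 0.0062), and IRF1 was 2.19-fold higher (adjusted p = 0.0051). Both were stable, while STAT2, OAS3 and IFIT3 were not. IFIT3 and OAS3 had 10 and 15 counts over the WT induced libraries. In antigen presentation, HLA-DRB1, an MHC class II chain whose reads are shared with near-identical alleles and paralogs, was 3.08-fold higher (adjusted p = 0.003). It was the sole call of 11 class II genes (9.09%). NLRC5, the transactivator of MHC class I genes, had a log2 difference of -0.86 ± 0.20 (adjusted p = 0.021) and was not stable. It was the sole call of 16 class I genes (6.25%, near the 6.34% of all genes).

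Of 24 tested integrins, proteases and adhesion genes 9 were called, all higher (37.5%, against 3.73% of all genes), and the median over the 24 was 0.62. MMP14, the membrane metalloprotease that activates other matrix proteases, was at 185, 212 and 180.3 CPM in WT and at 801, 780.0 and 735 CPM in S222A libraries (2.01 ± 0.17, adjusted p = 1.9e-05). The protease inhibitor TIMP1 was at 26.3, 22.4 and 21.8 CPM against 56.1, 51.7 and 62.8 CPM (1.26 ± 0.20, adjusted p = 0.003). The sheddase ADAM10 was 2.05-fold higher (adjusted p = 0.0023). Of the integrin chains, ITGA6, the laminin receptor subunit, was at 3.80, 2.24 and 3.16 CPM against 17.0, 15.2 and 15.9 CPM (2.26 ± 0.28, adjusted p = 0.00049). ITGB7, a subunit used in gut homing, was at 17.2, 7.85 and 14.7 CPM against 40.9, 38.6 and 40.2 CPM (1.48 ± 0.26, adjusted p = 0.0055). These 5 were stable, and ADAM8, CD44, ITGAX and ITGB5 lost the call in at least 1 fit. ITGAX could be tested only because it was high in the S222A induced libraries, and the share of 37.5% counts it. Of 20 tested myeloid surface antigens and growth factor receptors, 6 (30%) were called, all higher: CD82, CD53, CD48, CD63, CD44 and CLEC12A, of which CD82 and CD53 were stable. CD53, a leukocyte tetraspanin, was at 72.3, 62.8 and 98.4 CPM against 178, 159.9 and 129 CPM. Without the 2 shallowest libraries (WT induced replicate 2 and S222A uninduced replicate 3) 3 of that list were called.

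Chemokine receptors guide migration through G proteins, and RGS proteins end that signal. Of 18 tested, 5 were called higher and 1 lower (33.3%, beside 6.34% of all genes), with a median of 0.28. CXCR3, the receptor for interferon-induced chemokines, had 14, 0 and 3 counts in the WT libraries and was at 17.3, 22.5 and 17.8 CPM in the S222A libraries (ratio of pooled CPM 12.7, interval 7.85 to 22.1; adjusted p = 0.0014). It could be tested only because it was high in the S222A induced libraries. RGS1 was at 17.2, 11.2 and 10.5 CPM against 89.4, 96.8 and 128 CPM (2.95 ± 0.31, adjusted p = 0.00016). The oxysterol receptor GPR183 was 5.37-fold and RGS16 2.37-fold higher. These 4 were stable and RGS2 was not. CCR2, the receptor that draws monocytes out of marrow, differed in the other direction: it was at 65.8, 30.3 and 38.4 CPM in WT and at 18.4, 15.6 and 23.4 CPM in S222A libraries (-1.26 ± 0.32, adjusted p = 0.033), a call that was not stable.

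Of 15 tested cell-cycle inhibitors and antiproliferative genes 5 were called, all higher (33.3%, against 3.73% of all genes), and 10 were not (median 0.57). BTG2, a p53-inducible brake on proliferation that promotes mRNA deadenylation, was at 21.6, 17.9 and 20.5 CPM in WT and at 138, 167 and 129 CPM in S222A libraries (2.82 ± 0.18, adjusted p = 2.9e-06). CDKN1A, the inhibitor p21, was at 49.7, 33.6 and 38.2 CPM against 92.5, 91.9 and 100.1 CPM (1.20 ± 0.20, adjusted p = 0.0048). CDKN2C, the CDK4 and CDK6 inhibitor p18, was at 81.1, 94.2 and 85.0 CPM against 171, 154 and 143 CPM (0.85 ± 0.16, adjusted p = 0.0076). These 3 were stable, BTG1 and CDKN1B were not, and 3 members were called without the 2 shallowest libraries. The p53 response list, which shares BTG2 and CDKN1A, had 5 calls higher and 1 lower among 23 tested (26.1%, beside 6.34% of all genes). Its median was 0.13, and without those 2 libraries 2 were called. SESN1, TP53INP1 and ZMAT3 made up the rest of its higher calls, and the proapoptotic PMAIP1 (NOXA) was lower by 0.75 on the log2 scale (63.7, 57.2 and 60.5 CPM against 37.1, 33.2 and 37.7 CPM). Of 29 tested BCL2 family and apoptosis genes 5 were called higher and 1, again PMAIP1, lower (20.7% called, median 0.23). The higher ones include both kinds of activity: the survival genes CFLAR (2.04-fold, adjusted p = 0.0015), BIRC3 and BCL2A1, and the death gene BMF.

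Signal feedback and ligand genes moved in single members. DUSP4, a nuclear phosphatase that switches off ERK and JNK, was at 7.45, 8.97 and 9.21 CPM in WT and at 55.4, 61.1 and 53.6 CPM in S222A libraries (2.75 ± 0.21, adjusted p = 1.7e-05). DUSP6, the cytosolic ERK phosphatase, was 2.17-fold higher (adjusted p = 0.0046). ETV4, a transcription factor downstream of ERK, was lower (-1.07 ± 0.18, adjusted p = 0.0041), as was JUN (-1.77 ± 0.41, adjusted p = 0.025), the AP-1 subunit, whose call was not stable. These 4 were the calls among 20 tested early-response and MAP kinase feedback genes (20%, beside 6.34% of all genes). In the BMP and TGF-beta pathway 6 of 26 tested genes were called, all higher (23.1%, against 3.73% of all genes), with a median of 0.26. NOG, the secreted BMP antagonist noggin, was at 39.2, 34.8 and 42.9 CPM against 138, 178 and 166 CPM (2.03 ± 0.22, adjusted p = 0.00016). The type II receptor TGFBR2 was at 9.65, 14.6 and 9.21 CPM against 22.9, 34.3 and 33.2 CPM (1.53 ± 0.25, adjusted p = 0.0044). These were the stable members. The ligand BMP2, the type I receptor TGFBR1, the repressor SKIL and the target ID2 lost the call in at least 1 fit. ID2 could be tested only because it was high in the S222A induced libraries, and the share of 23.1% counts it.

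**Figure D3:**
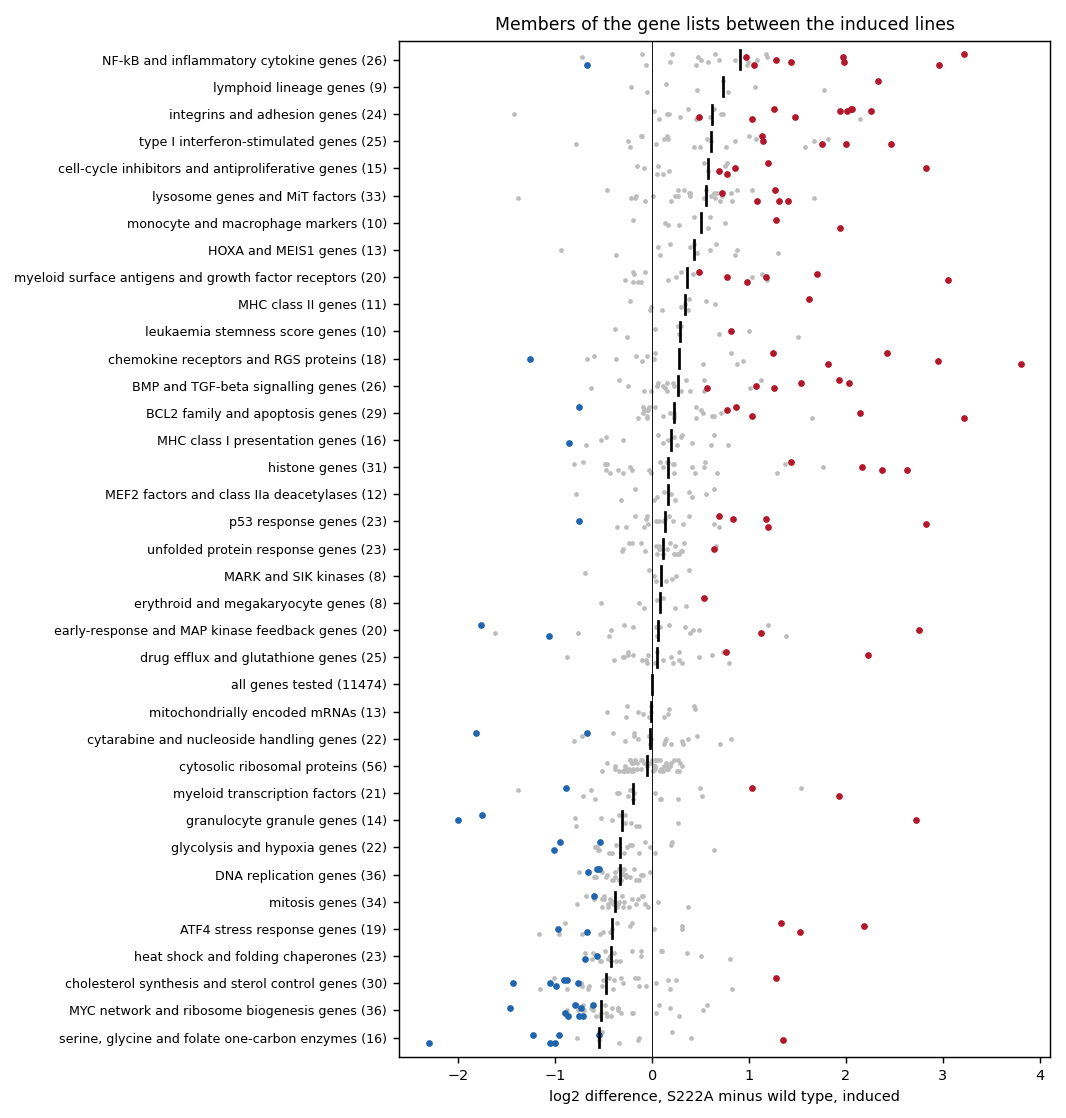
Each row is a gene list with its number of tested members; points are log2 differences between the induced lines (S222A minus WT), red where called higher, blue where called lower and grey where not called, and the black bar is the median (for all genes the bar alone is drawn). Lists of NF-kB, adhesion and lysosome genes lie to the right of 0, and lists of serine and folate enzymes, MYC and ribosome biogenesis, and cholesterol synthesis to the left.

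Of 36 tested MYC network and ribosome biogenesis genes 8 were called, all lower (22.2%, against 2.61% of all genes), and 28 were not (median -0.53). MYC was at 279, 188 and 280.0 CPM in WT and at 81.0, 93.6 and 96.4 CPM in S222A libraries, 2.77-fold lower (adjusted p = 0.039). The nucleolar factors NOLC1 (-0.80 ± 0.16, adjusted p = 0.011), WDR43, PPAN, NOP16, NOP2, NOP58 and NCL were the others. None of the 8 was stable; 4 members were called without the 2 shallowest libraries and 13 without the deepest library of each group. Cytosolic ribosomal proteins themselves did not differ past the threshold (0 of 56 called by edgeR, 3 at an unadjusted p under 0.05, 1 called by DESeq2 and 0 by limma-voom; median -0.05). All 36 tested DNA replication genes had a negative difference (median -0.34), and 3 were called: the replicative helicase subunits MCM4 and MCM7 and the licensing factor CDT1. MCM7 was at 330.2, 339.7 and 319.8 CPM against 232, 228 and 217 CPM (-0.55 ± 0.13, adjusted p = 0.029). Of 34 mitosis genes 32 had a negative difference (median -0.39) and 1, the checkpoint gene MAD2L1, was called. Over all 11474 tested genes 5730 had a negative difference, and the sign counts of these lists were not tested. Among 23 heat shock and folding chaperones (median -0.42) HSPA9 and DNAJC2 were called, both lower, and 6 were called without the deepest libraries. No call in the replication, mitosis or chaperone list was stable, and the shares called were 8.33%, 2.94% and 8.70%, beside 6.34% of all genes in either direction.

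Serine synthesis draws carbon from glycolysis and feeds folate one-carbon units to nucleotide synthesis. Of 16 tested enzymes of both pathways 6 were called lower, 1 higher and 9 not (median -0.55), where 2.61% of all genes were called lower. PHGDH, the first enzyme of serine synthesis, was at 83.6, 90.8 and 88.7 CPM in WT and at 32.6, 39.7 and 39.1 CPM in S222A libraries (-1.23 ± 0.17, adjusted p = 0.0014). ALDH1L2, the mitochondrial formyltetrahydrofolate dehydrogenase, was at 12.4, 38.1 and 19.2 CPM against 2.77, 6.02 and 3.91 CPM (-2.30 ± 0.44, adjusted p = 0.0089). MTHFD1L was 2.00-fold lower (adjusted p = 0.0074), and MTHFD1, PSAT1 and the folate carrier SLC25A32 were lower without being stable. The transcription factor ATF4 controls several of these enzymes. Of 19 tested ATF4 response genes 3 were called higher and 2 lower (26.3%, beside 6.34% of all genes), with a median of -0.41. The cystine transporter SLC7A11 (27.9, 24.7 and 24.7 CPM against 114, 119 and 122 CPM, adjusted p = 5.5e-05), the phosphatase cofactor PPP1R15A and the lipoprotein receptor VLDLR were higher and stable. TRIB3 and the arginine transporter SLC7A1 were lower without being stable.

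Cholesterol synthesis is switched on by SREBP factors, which INSIG1 holds back in the endoplasmic reticulum. Of 30 tested sterol genes 6 were called lower, 1 higher and 23 not (median -0.48), beside the same 2.61% of all genes called lower. SQLE, the squalene epoxidase, was at 119, 105 and 109.7 CPM in WT and at 34.6, 44.6 and 43.6 CPM in S222A libraries (-1.44 ± 0.15, adjusted p = 0.00016). DHCR7, MSMO1, HMGCS1, FDFT1 and the sterol carrier STARD4 were lower by 1.69-fold to 2.08-fold and were not stable. INSIG1 was the higher member, at 299, 280.2 and 370.3 CPM against 771, 842 and 699 CPM (1.28 ± 0.17, adjusted p = 0.0008), and was stable. Of 22 glycolysis and hypoxia genes 3 were called, all lower (13.6%; median -0.33). LDHA was at 288, 322 and 350.3 CPM against 178, 171 and 147 CPM (-0.95 ± 0.16, adjusted p = 0.0047) and was stable; GAPDH and ENO1 share reads with pseudogenes and are uncertain.

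Lineage genes gave a mixed picture. Granule proteins mark the granulocytic arm: of 14 tested genes 2 were called lower and 1 higher (21.4%, beside 6.34% of all genes), with a median of -0.32. MS4A3, a membrane protein of granulocyte progenitors, was at 233, 178 and 205 CPM in WT and at 59.6, 62.4 and 60.7 CPM in S222A libraries (-1.76 ± 0.17, adjusted p = 5.5e-05). MPO, myeloperoxidase, was at 10.4, 4.48 and 10.3 CPM against 0.693, 3.34 and 2.31 CPM (-2.01 ± 0.41, adjusted p = 0.012). BPI, which had 8 counts over the WT and 106 over the S222A libraries, was the higher one; neither BPI nor MPO was stable. On the monocytic side, FCGR2A and ITGAX were called higher of 10 tested markers (20%, median 0.50), and neither was stable. ITGAX needed the S222A induced libraries to pass the filter, and the share and median are taken with it. CD14 did not reach the filter, with at most 10 counts in any library. Among 21 myeloid transcription factors, RUNX2 was higher (171, 174 and 185 CPM against 344, 386 and 354 CPM; 1.03 ± 0.15, adjusted p = 0.0018) and stable. ID2 was called higher and CEBPD lower (99.4, 98.6 and 113 CPM against 53.7, 68.7 and 46.2 CPM), without being stable. The share called of these factors was 14.3%, and 5 members were called without the 2 shallowest libraries. That share counts ID2, which needed the S222A induced libraries to pass the filter. None of 13 HOXA, MEIS1 and partner genes was called by edgeR (median 0.43), with 5 at an unadjusted p under 0.05, 3 called by DESeq2 and 3 by limma-voom, and 7 called with a term for the deepest libraries. HOXA9 had the difference 0.60 ± 0.18 (adjusted p = 0.069) and MEIS1 0.46 ± 0.16 (adjusted p = 0.12), and 7 of the 13 showed no overlap upward, a pattern of 15.2% of all genes. Of 10 tested stemness score genes MMRN1 was called (10% of the list), at 122, 136 and 161 CPM against 238, 259 and 239.6 CPM, a call lost without S222A induced replicate 2.

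Of 33 tested lysosome genes 5 were called, all higher (15.2%, against 3.73% of all genes), and 28 were not (median 0.56). The cathepsin gene CTSB was at 55.5, 49.3 and 46.3 CPM in WT and at 118, 118 and 140.1 CPM in S222A libraries (1.31 ± 0.16, adjusted p = 0.00045). TPP1, a lysosomal peptidase, was 2.41-fold higher (adjusted p = 0.0023). Both were stable, whereas GRN and CTSZ were not, and 13 members were called without the deepest libraries. Of 31 histone genes 4 were called higher (12.9%, median 0.16), HIST1H2AC and HIST1H2BK stably. Copies of these genes are near-identical and their reads are uncertain.

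For drug handling, the study's theme, few members were called. The shares were 9.09% of the cytarabine and nucleoside list and 8% of the efflux and glutathione list, near the 6.34% of all genes. Of 22 genes of cytarabine and nucleoside handling 2 were called, both lower (median -0.02). CDA, which deaminates cytarabine, was at 13.3, 12.3 and 12.1 CPM in WT and at 2.08, 3.79 and 4.22 CPM in S222A libraries (-1.82 ± 0.26, adjusted p = 0.0016) and was stable; DCTPP1 was lower without being stable. The activating kinase DCK had a difference of 0.12 ± 0.31 (adjusted p = 0.88) and the uptake transporter SLC29A1 one of -0.81 ± 0.30 (adjusted p = 0.14). Among 25 efflux and glutathione genes MVP, the major vault protein, was higher (3.80, 2.24 and 4.21 CPM against 18.0, 19.6 and 14.9 CPM; adjusted p = 0.0011), as was GPX1 (0.76 ± 0.15, adjusted p = 0.011), which was not stable without WT induced replicate 2 or 3. The efflux pump gene ABCB1 had 0 counts in all 12 libraries. Lists with a single call were the unfolded protein response (DNAJC3, 4.35% of 23), lymphoid genes (TRAC, 11.1% of 9) and erythroid and megakaryocyte genes (TFRC, 12.5% of 8), none stable. The 13 mitochondrially encoded mRNAs had no edgeR call (1 at an unadjusted p under 0.05; 0 called by DESeq2 or limma-voom; median -0.01).

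Part of the line difference was present before induction. Between the uninduced lines, which share no library with the induced ones, 45 genes were called (0.392%), 39 higher (0.34%) and 6 lower (0.0523%), and 858 had an unadjusted p under 0.05. Of the 45, 35 were also called between the induced lines (77.8% of the uninduced and 4.81% of the induced calls), and all 35 had the same direction. They included MIR146A, LIN7A, IL4I1, CD82, BTG2, TNFAIP3, RELB, CDKN1A, SLC7A11, MSI2, IFT57 and ZNF185. CDKN1A was at 26.2, 41.3 and 27.0 CPM in the WT uninduced and at 97.2, 80.0 and 96.4 CPM in the S222A uninduced libraries, a difference of 1.51, and MSI2 one of -2.52. PLEKHO1, an adaptor of the cell membrane, differed by 2.72 before and by 3.08 after induction. For other genes the uninduced difference was smaller: over the 428 genes called higher the median was 1.15 induced and 0.36 uninduced, and over the 299 called lower -0.86 and -0.28. Of the 727 genes, 627 (86.2%) had the same sign in the uninduced lines, as had 64.8% of all genes.

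**Figure D4:**
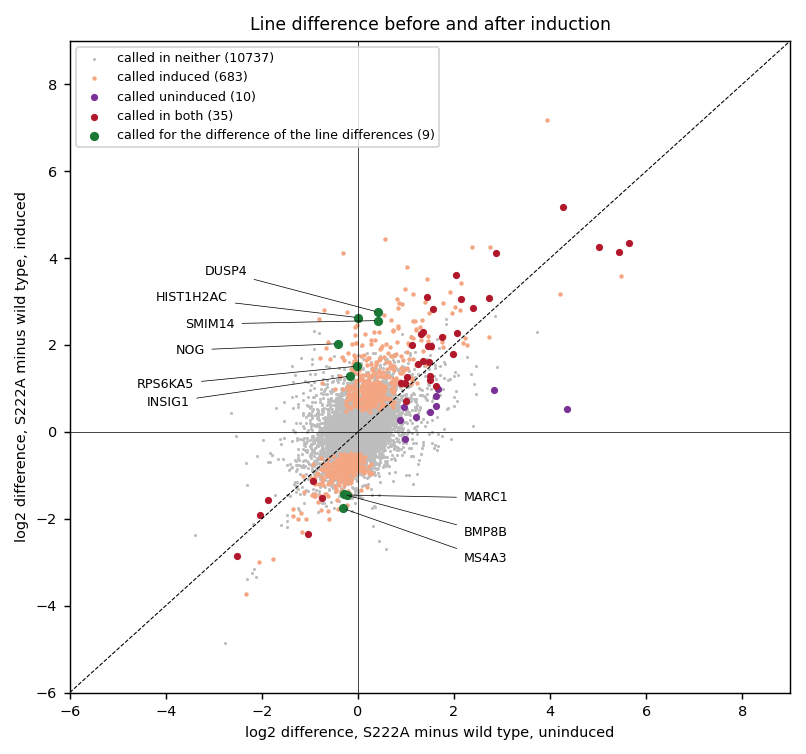
Each point is a tested gene, with the log2 difference S222A minus WT in the uninduced lines on the x axis and in the induced lines on the y axis; colours mark calls, and the dashed line marks equal differences. The 35 genes called in both lie in the same direction on both axes, and the 9 genes called for the difference of the line differences lie near 0 on the x axis.

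Whether the line difference itself changed with induction was tested for each gene as the induced difference minus the uninduced one. At an adjusted p under 0.05, 9 genes were called (0.0784%; 766 at an unadjusted p under 0.05). All 9 were also called between the induced lines and none between the uninduced ones. NOG was at 16.1, 14.5 and 24.5 CPM in the WT uninduced and at 14.7, 15.2 and 8.76 CPM in the S222A uninduced libraries, where the lines overlapped, against the clear separation after induction. DUSP4 was at 5.31 to 10.7 CPM in all 6 uninduced libraries and HIST1H2AC at 5.02 to 7.76 CPM. SMIM14, a small membrane protein, and RPS6KA5, the kinase MSK1 that phosphorylates histone H3 and CREB, were higher in the S222A line after induction, at 209.5 to 259.5 and 86.7 to 112 CPM against 29.1 to 47.6 and 31.4 to 39.5 CPM. The lower ones were MS4A3, the mitochondrial reductase MARC1 and the BMP ligand BMP8B. BMP8B was at 104, 106 and 109 CPM in WT uninduced and at 85.0, 87.8 and 87.6 CPM in S222A uninduced libraries, and at 112, 99.8 and 112 CPM against 41.2, 38.1 and 40.7 CPM after induction. This count was fragile: 0 to 4 genes were called when any 1 of the 12 libraries was left out, and 0 without the 2 shallowest libraries.

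**Figure D5:**
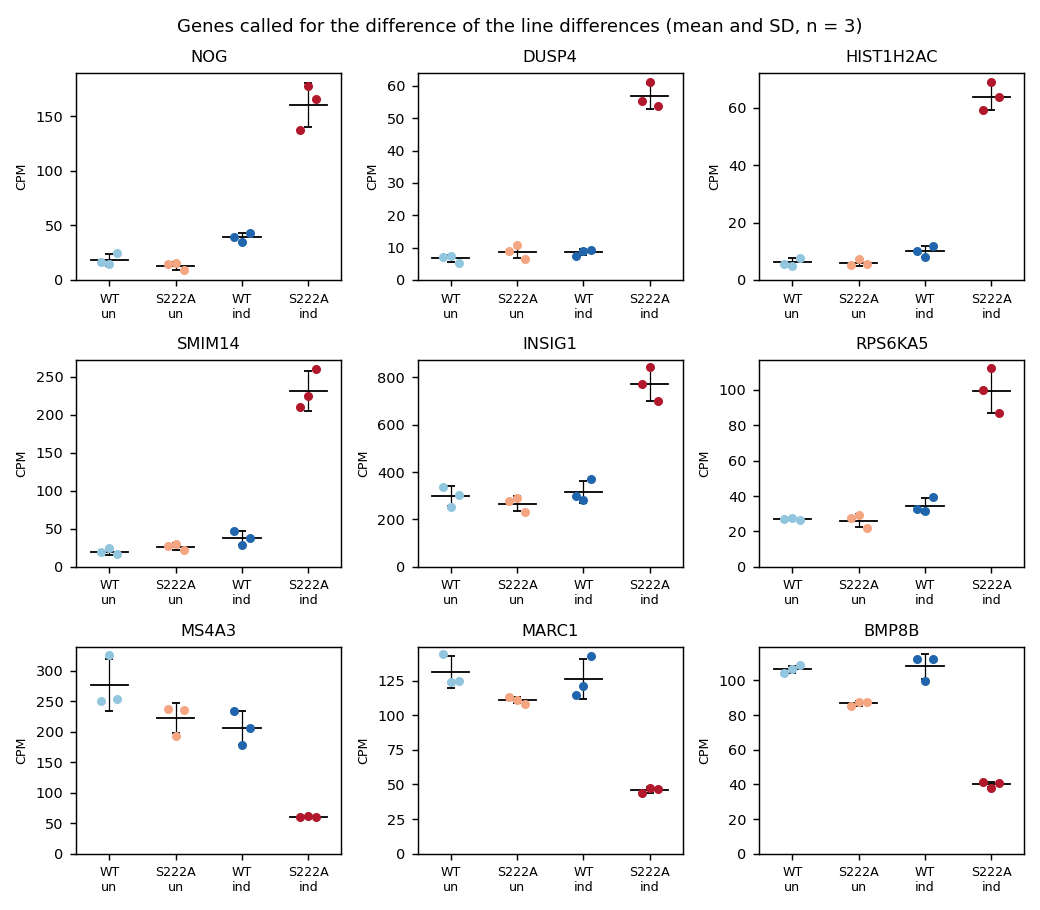
CPM in each library (points) for the 9 genes called for the difference of the line differences, in the 4 groups, with mean (bar) and SD (whisker, n = 3); axes start at 0. The S222A ind libraries lie above (NOG, DUSP4, HIST1H2AC, SMIM14, INSIG1, RPS6KA5) or below (MS4A3, MARC1, BMP8B) the 9 libraries of the other groups.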

How the data were processed

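RNA sequencing of OCI-AML2 clones gave 12 libraries in 4 groups of 3. The deposited file holds whole-number read counts, unnormalized, for each symbol. The submitters' processing notes name hg19, STAR 2.4, HTSeq 0.6.1 and DESeq2; which strand setting and annotation were used is not given there. Column names equal the descriptions in the labels and were matched through them.

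Genes were kept by edgeR's filterByExpr (edgeR 4.0.16, R 4.3.3), libraries were scaled by TMM, and 1 robust quasi-likelihood fit with a mean per group over all 12 libraries gave every contrast (residual df 8; biological coefficient of variation 24.8%). A gene was called at a Benjamini-Hochberg adjusted p under 0.05 over all 11474 genes. Depth ran from 875710 to 13134791 counts per library, and a count of 0 allows up to 3 counts. Ratios of pooled counts have exact Clopper-Pearson 95% intervals that cover counting error only. No 2 libraries of an induced group agreed within sampling noise. The edgeR, DESeq2 and limma-voom fits were run on simulated data with counts drawn independently per library. That simulation held no difference between the deepest and the other libraries, so it does not bear on calls in its presence. Alternatives were RLE and upper quartile scaling, DESeq2 1.42.0, limma-voom (limma 3.58.1), other filters, a replicate block, a term for or removal of the deepest libraries, and leaving out each library; leaving out the 2 shallowest libraries (WT induced replicate 2 and S222A uninduced replicate 3) was added after seeing the data.

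Named genes were MEF2C, the 14 largest calls in each direction with a mean log2 CPM of at least 1 and no overlap, up to 4 called members per list by adjusted p (or the one with the smallest p), and up to 8 calls shared with each other contrast; the other called list members, and uncalled members given with values, were added after their values were seen. The members and the 40 gene lists were chosen with earlier results of these data known. A few members counted in these lists are not reported here by name.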

Additional observations from a re-analysis of the deposited data

Results flagged for a closer look

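The line difference differed between induced and uninduced cells for 9 genes, by the test of the difference itself (edgeR quasi-likelihood, adjusted p from 0.018 to 0.046). On the log2 scale the induced minus the uninduced difference was 2.63 for HIST1H2AC, 2.44 for NOG, 2.33 for DUSP4, 2.14 for SMIM14, 1.53 for RPS6KA5 and 1.44 for INSIG1. It was -1.44 for MS4A3, -1.22 for MARC1 and -1.14 for BMP8B. In all 9 the 3 S222A induced libraries lay outside the range of the 9 other libraries. Reads of HIST1H2AC may be shared with near-identical histone genes.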

How the results depend on the processing

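All 727 genes called between the induced lines kept their direction in each alternative that tested them, while the counts moved. The 727 calls (428 higher, 299 lower) became 482 (157 lower) with only the 2 groups compared, 350 (232 and 118) with the replicate block and 2480 (1330 and 1150) with a term for the deepest libraries, and DESeq2 called 474 lower. Leaving out 1 library gave 249 to 891 calls, 157 to 511 higher and 82 to 380 lower. Without a filter the median of all genes shifted by 0.11 on the log2 scale. The 45 calls between the uninduced lines became 83 with DESeq2, 91 without a filter, 9 with only 2 groups, 22 with the replicate block, 218 with the term for the deepest libraries, 27 without the 2 shallowest libraries, and 17 to 48 leaving out 1 library. The 9 calls for the difference of the line differences became 36 with DESeq2, 22 without a filter, 147 with the term for the deepest libraries, 0 with the replicate block, 0 without the 2 shallowest libraries, and 0 to 4 leaving out 1 library. In the 10 edgeR fits without a call, 546 to 819 genes had an unadjusted p under 0.05. The cause of these moves was not tested. EPB42, not called, turned to 0.19 without WT induced replicate 2, 0.13 without S222A induced replicate 3 and 0.18 without the 2 shallowest libraries, and PDGFRB, not called, to 0.10 without the deepest libraries and 0.012 without WT induced replicate 1, in a range from -0.25 when 1 library was left out.

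The replicate numbers of the titles gave no sign of pairing the lines: deviations of same-numbered induced libraries correlated at -0.49, 0.28 and -0.40. The largest correlation, 0.73, was between WT induced replicate 1 and S222A induced replicate 3, the deepest library of each line. Libraries of the 2 lines thus shared structure outside their numbers. What a call lost under the block means was not tested. Of 3577 values of single named genes under alternatives, 2915 kept direction and side of the threshold, 645 lost and 12 gained the call, and 5 reversed. With 875710 counts in WT induced replicate 2, genes under about 3 CPM are not measured there.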

Other observations

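All 10 genes called between the uninduced lines and not between the induced ones were higher in the S222A line before induction, among them IL1B, LPL, NAV3, ORM1, PON2, S100A9, SRGN, ZC3H12A and ZNF438. S100A9, a calcium-binding alarmin of myeloid cells, differed by 1.63 on the log2 scale uninduced (adjusted p = 0.018) and by 0.60 induced (adjusted p = 0.22). ZC3H12A, the RNase regnase-1 that degrades cytokine mRNAs, differed by 2.82 and 0.97, and IL1B by 1.67 and 0.99. No member of the 10 was called for the difference between the 2 contrasts, so the contrasts are not shown to differ for them.

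Short joining segments of the T cell receptor and immunoglobulin loci had an uneven pattern that was noticed after their values were seen. Of 96 such symbols, 9 passed the filter and none was called between the induced lines. Their summed level was 2.34 to 8.88 CPM in the deepest library of each group (4 libraries) and 516 to 11459 CPM in the other 8. TRAJ29 held 78.0% of these counts, with 7986 counts in WT induced replicate 2, the smallest WT library, and 11 in WT induced replicate 1, the largest. In the S222A induced line it had 1521, 1888 and 20 counts. The constant region TRAC did not follow this order, with 91, 2 and 27 counts in the WT and 108, 151 and 777 counts in the S222A induced libraries.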
